A study of Mus musculus with 14 samples.

Results

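The genes described here make, regulate, store and export cholesterol, and their 32 members were chosen by symbol from the GRCm38 annotation, of 49315 genes in the count table. They comprised 7 enzymes that lead from acetyl-CoA to farnesyl diphosphate, 3 that make and close squalene, 9 that turn lanosterol into cholesterol, 5 SREBP regulators, 3 genes for handling or storage and 5 genes of the LXR and efflux arm. All 32 were found once in the table, and all 32 passed the filter on low counts, which left 15700 genes to test. Messenger RNA was measured in primary microglia of C57BL/6 mice, in 7 libraries from TIMP2 knockout (KO) and 7 from wild-type (WT) pups. TIMP2, a secreted inhibitor of metalloproteinases, was deleted in the whole animal and not in microglia alone. Each library was a pool of 5 male and female pups at postnatal day 6 to 7, with forebrain cells taken by CD11b microbeads. By the study's methods the cells were plated in medium with fetal bovine serum and collected after culture, and each sample was a separate isolation. The paper describes serum as high in TIMP2, and the part of serum in the values below was not tested.

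Animal cells build cholesterol from acetyl-CoA through the mevalonate pathway, which ends in squalene, and then through a series of sterol intermediates. When sterol in the endoplasmic reticulum is low, SCAP escorts SREBP to the Golgi, where it is cut to release a transcription factor for the synthesis genes, while INSIG proteins hold the complex back when sterol is plentiful. Oxysterols and some intermediates activate the LXR receptors, which turn on the exporters ABCA1 and ABCG1. In the brain, microglia handle much cholesterol because they engulf myelin and dying cells.

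The depth was 38875344 to 48070236 counted reads per library, and no member fell below 170 reads in any library. Timp2 lay at 119.6 to 129.2 CPM (reads scaled to 1000000 per library) in KO and 397.6 to 495.1 CPM in WT, with a log2 fold change of -1.92 (edgeR quasi-likelihood test, adjusted p = 1.53e-12), so the labels matched the targeted gene. The 10 microglial markers summed to 6422 to 7780 CPM in KO and 6044 to 7730 CPM in WT, and none was near 0. Astrocyte markers (12 genes) summed to 30.68 to 146.6 CPM in KO and 35.42 to 276.8 CPM in WT, with 10 of 10 tested members lower on average in KO, 1 of them at an unadjusted p under 0.05 and 0 called by edgeR. Lower on average in KO were also 8 of 9 tested neuronal, 7 of 9 oligodendrocyte and 4 of 4 fibroblast markers, against 2 of 10 microglial, 1 of 4 border macrophage and 1 of 4 endothelial ones, with 0 of them at an unadjusted p under 0.05. The other marker lists summed to at most 868.7 CPM for border macrophages (5 genes, with Cd163 and Lyve1 under 1 CPM on average), 144.0 for oligodendrocytes (10), 60.03 for neurons (9), 51.56 for endothelium (5) and 22.06 for fibroblasts (5). A fit with the astrocyte marker level as a covariate is given beside the comparison of genotypes, the part of the other lists was not tested, and in bulk samples fewer cells of a type and less RNA per cell cannot be told apart.

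Upstream sequence of RefSeq (GRCm38.p6) was found for 27 of the 32 members, as a window from 250 bases before to 50 after the start site. Hmgcs1, Srebf2 and Abca1 are shown because Srebf2 varied with Hmgcs1 over the libraries and Abca1 varied against both, as described further on. The relations of Srebf2 and Abca1 to Hmgcs1 weakened without the libraries KO 1 and WT 1. The capitals mark the letters TCACNCCA, a core of the sterol regulatory element bound by SREBP, and CCAAT, the site of the factor NF-Y, each on either strand. The stretches end at the start site or before the first annotated exon base, and lie at chr13:119690101-119690350 (plus strand), chr15:82147019-82147180 (plus) and chr4:53159896-53160145 (minus).
Hmgcs1: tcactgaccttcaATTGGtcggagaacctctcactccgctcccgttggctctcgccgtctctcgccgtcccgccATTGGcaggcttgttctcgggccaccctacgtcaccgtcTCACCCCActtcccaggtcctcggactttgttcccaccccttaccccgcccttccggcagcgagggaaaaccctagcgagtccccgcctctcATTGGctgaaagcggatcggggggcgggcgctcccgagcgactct
Srebf2: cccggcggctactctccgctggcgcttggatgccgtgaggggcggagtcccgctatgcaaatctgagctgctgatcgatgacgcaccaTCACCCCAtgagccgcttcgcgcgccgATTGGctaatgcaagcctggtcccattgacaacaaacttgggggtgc
Abca1: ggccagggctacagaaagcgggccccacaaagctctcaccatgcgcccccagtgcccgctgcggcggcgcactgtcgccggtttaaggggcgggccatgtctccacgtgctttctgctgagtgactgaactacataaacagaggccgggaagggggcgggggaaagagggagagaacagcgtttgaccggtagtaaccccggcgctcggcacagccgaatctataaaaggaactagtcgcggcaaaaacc

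The Hmgcs1 stretch held TCACCCCA at base -137 from the start site and 3 CCAAT letters on the minus strand, at -237, -176 and -45. In the Srebf2 stretch TCACCCCA stood at -162 and 1 CCAAT at -135, also on the minus strand. The Abca1 stretch matched neither. Over the full windows, CCAAT was found in 21 of 27 members (77.8%), in 15 of 16 enzymes (93.8%, all but Acat2) and in 41.1% of the 27025 genes with a window. TCACNCCA was found in 3 of 27 members (11.1%: Hmgcs1, Msmo1 and Srebf2) and 4.97% of all genes. The longer TCACNCCAC, which contains it, was found in 1 member, Hmgcs1, and 1.44% of all genes. An exact direct repeat of AGGTCA with 4 bases between the copies, a form of the LXR element, was found in 0 of 27 members and 0.0148% of all genes. Since this exact spelling was in 0 of the 11116 tested genes with a window, its absence does not show that members lack looser forms. Several spellings were looked at, and a match is a description of letters, not a bound site.

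Levels were compared between genes as CPM per kilobase of exon (RPKM), with the union of all annotated exons as the length. Soat1, which esterifies cholesterol for storage in droplets, was highest, at 64.7 ± 4.92 RPKM in KO and 64.6 ± 3.30 in WT (SD, n = 7 each). The exporter Abca1 followed, at 41.2 ± 5.33 RPKM in KO and 41.5 ± 3.43 in WT, and next came Srebf2, which encodes the SREBP that drives sterol synthesis, at 38.4 ± 2.62 and 37.6 ± 3.74. Insig1, Mylip, Nr1h2 and Hmgcs1 lay between 31.1 and 35.9 RPKM in both genotypes. Among these genes, neighbours in the order named differed by less than the larger of their SDs. Lowest were Tm7sf2, at 2.26 ± 0.136 RPKM in KO and 2.22 ± 0.297 in WT, and the LXR gene Nr1h3, at 2.29 ± 0.371 and 2.55 ± 0.688, and these genes could not be ordered within their spread. With the longest protein-coding transcript as the length, Soat1 was again highest in WT, at 75.5, but Nr1h2 (56.8) and Srebf2 (53.3) lay above Abca1 (41.9). The plot of levels by arm shows the wide spacing between genes and near overlap between genotypes.

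**Figure D1:**
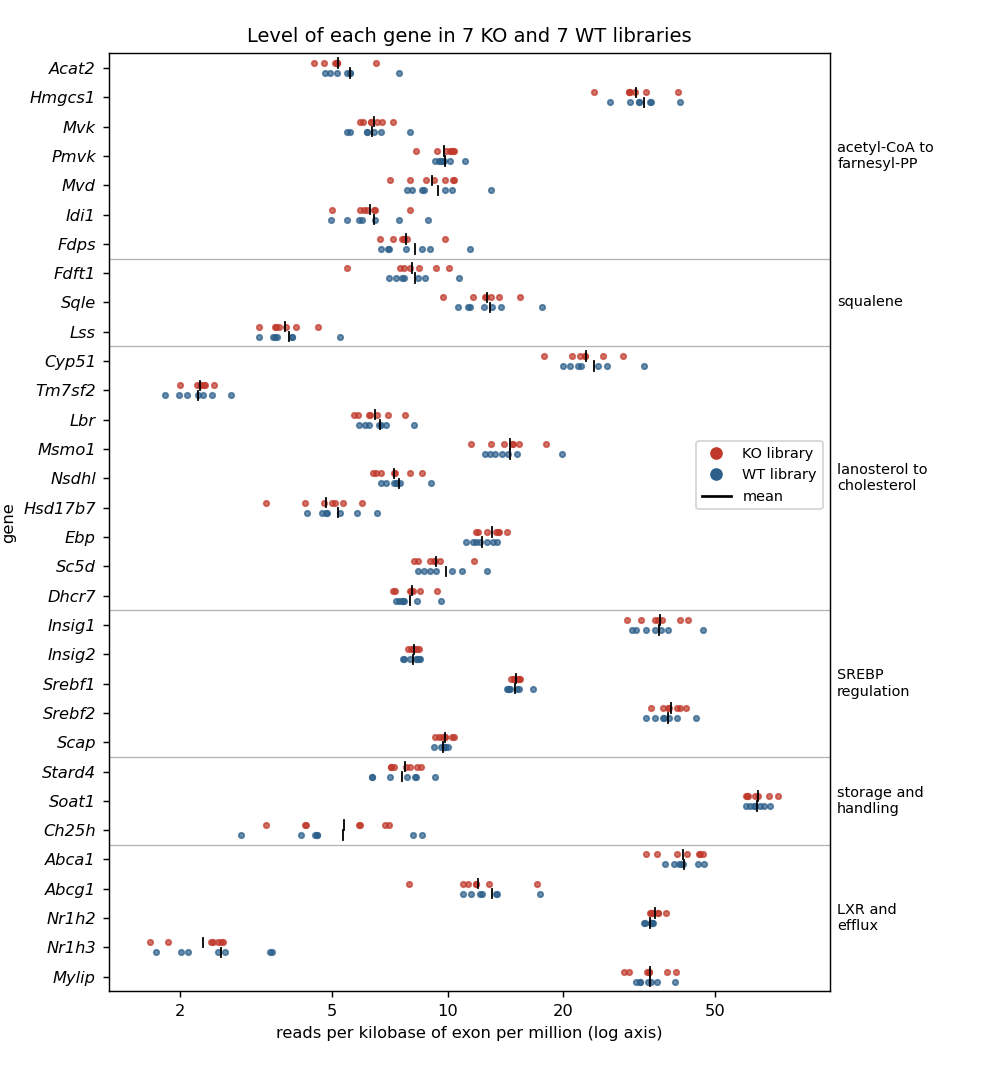
Level of the 32 genes in RPKM (log axis), with one point per library, KO in red and WT in blue, and a black bar at the mean of each genotype. Soat1 lies at the right, near 64.6 RPKM, Tm7sf2 and Nr1h3 lie at the left, and the KO and WT points overlap for every gene.

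Within the synthesis arm the WT means spanned 14.7-fold, or 7.67-fold with the longest protein-coding transcript of each gene as its length. Hmgcs1, which makes HMG-CoA, was the highest enzyme, at 32.6 ± 4.26 RPKM in WT, followed by Cyp51, the lanosterol demethylase, at 24.1 ± 4.35, and Msmo1, the methyl sterol oxidase, at 14.6 ± 2.53. Sqle, the epoxidase that commits squalene to sterols, was at 12.9 ± 2.37 and Ebp, the sterol isomerase, at 12.3 ± 0.837. The first enzyme of the chain, Acat2, was at 5.56 ± 0.892, and Lss, which closes the sterol ring, was at 3.85 ± 0.663. The other 12 enzymes lay between 2.22 and 9.89 RPKM in WT. These levels depended on the gene length: with the longest protein-coding transcript instead, WT levels were 43.9 for Msmo1, 43.2 for Hmgcs1, 25.0 for Fdps, which was at 8.21 over the union, and 8.90 for Lss.

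KO and WT were then compared to ask whether loss of TIMP2 moved the programme. Of the 32 members 0 were called (edgeR quasi-likelihood test, Benjamini-Hochberg adjusted p under 0.05), where 3 of 15700 genes (0.0191%) were called. At an unadjusted p under 0.05 the counts were 0 of 32 members, also by DESeq2, against 529 of 15700 genes (3.37%). The smallest p among the members was 0.0724, and their adjusted p ranged from 0.943 to 0.997. In 0 of 32 members were the KO and WT libraries apart without overlap, as they were in 0.0828% of all tested genes. For 31 of 32 members the genotype means differed by less than 1 SD between libraries, and the exception was Nr1h2, at 1.16 SD. With the astrocyte marker level as a covariate, 0 of 32 members were called, and the median over the enzymes was -0.0405, beside -0.0371 without it. The log2 fold change was -0.02 for Hmgcs1 and -0.04 for Hsd17b7, smaller than the -0.07 and -0.10 without the covariate. It was slightly larger in size for Fdps (-0.0818 in place of -0.0755) and Cyp51 (-0.0756 in place of -0.0647). For Lbr it was -0.14 in place of -0.04, and Lbr was then the 1 member at an unadjusted p under 0.05 (edgeR adjusted p = 1.0).

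The 95% confidence interval of the log2 fold change lay within ±0.585, that is within 1.5-fold, for 32 of 32 members. It lay within ±0.322 for 28 of 32, and the exceptions were Hsd17b7, Ch25h, Abcg1 and Nr1h3. The median log2 fold change was -0.01 over the members, -0.04 over the 19 enzymes and -0.01 over the 5 LXR and efflux genes, beside 0.0016 over all tested genes. Of the enzymes 15 of 19 were lower on average in KO, of the SREBP regulators 0 of 5, of the handling genes 0 of 3 and of the LXR and efflux genes 4 of 5, beside 49.2% of all tested genes. The direction of the enzymes turned on single libraries, with a median of 0.04 without WT 1 and -0.09 without KO 1. The enzymes varied together over the libraries, so that these signs are not separate observations.

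**Figure D2:**
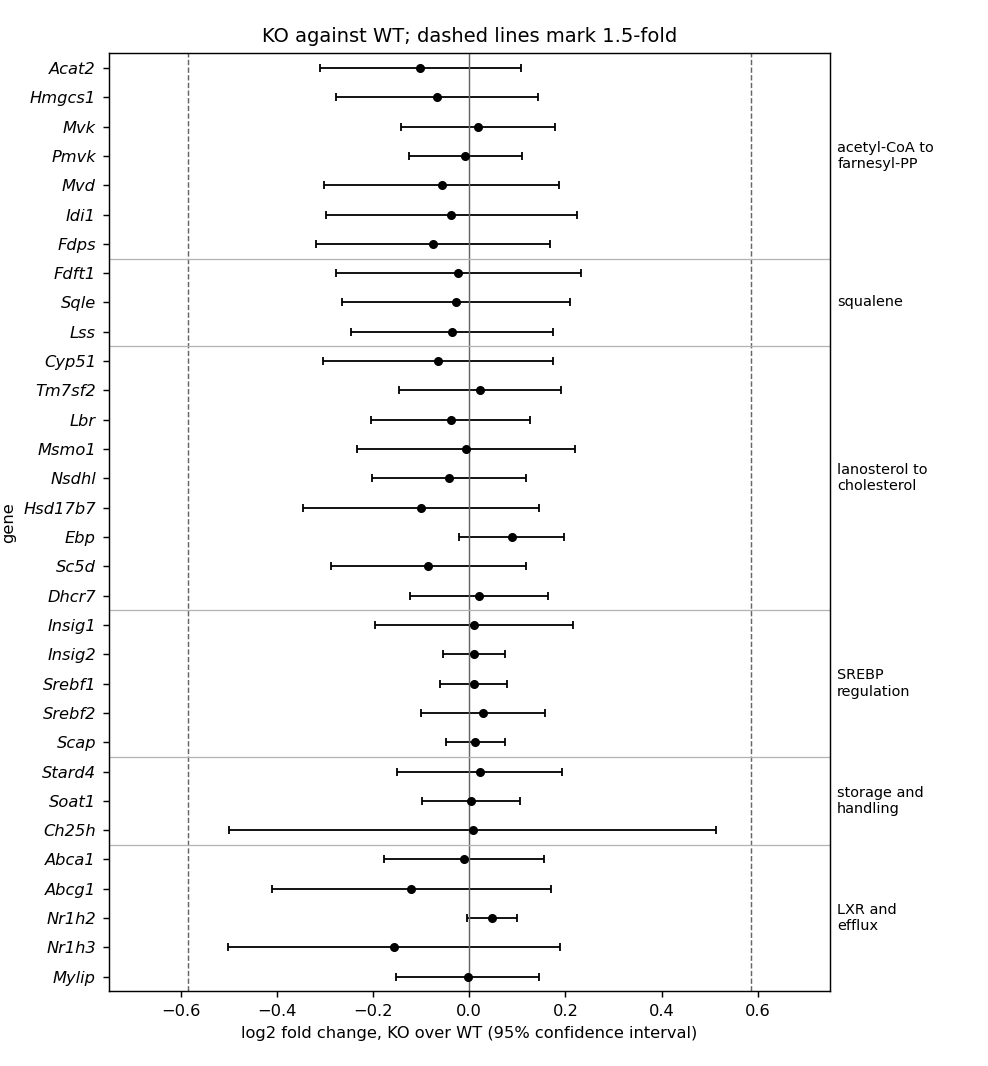
Log2 fold change of each gene, KO over WT, with its 95% confidence interval (edgeR), by arm of the pathway. Every interval includes 0 and lies inside the dashed lines at 1.5-fold (0.585 on the log2 scale), and the widest belong to Ch25h and Nr1h3.

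In the arm from acetyl-CoA to farnesyl diphosphate, 6 of 7 genes were lower on average in KO. Hmgcs1 ranged from 111.1 CPM over a median of 138.2 to 183.9 in KO and from 122.4 over 145.7 to 185.8 in WT. The groups overlapped almost wholly, with a log2 fold change of -0.07 ± 0.10 (SE, 95% interval -0.28 to 0.14). Acat2, the thiolase that joins acetyl-CoA units, was at 11.4, 13.08 and 16.56 CPM (lowest, median, highest) in KO and at 12.19, 13.87 and 18.97 in WT. Its log2 fold change was -0.10 ± 0.10 (SE, 95% interval -0.31 to 0.11), and a single library in each genotype stood above the rest. Fdps, which makes farnesyl diphosphate, was at 27.99, 32.34 and 41.5 CPM in KO and at 28.11, 32.84 and 48.09 in WT. Its log2 fold change was -0.08 ± 0.11 (SE, 95% interval -0.32 to 0.17), again with overlapping groups. Mvk and Pmvk, the kinases that act in turn on mevalonate, Mvd, the decarboxylase that follows, and Idi1, the isomerase of the isoprene unit, had log2 fold changes between -0.06 and 0.02.

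The 3 genes of the squalene step had log2 fold changes from -0.04 to -0.02. Sqle was at 53.98, 69.89 and 85.89 CPM in KO and at 59.01, 68.95 and 98.03 in WT, so that the medians nearly coincided. Its log2 fold change was -0.03 ± 0.11 (SE, 95% interval -0.26 to 0.21). Fdft1, the squalene synthase, shared 774 exon bases on the opposite strand with Ctsb, a cathepsin gene that held 2.15% of all reads, and without a stated strand setting reads from the shared bases cannot be told apart. Lss had a log2 fold change of -0.04.

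Among the 9 genes from lanosterol to cholesterol, 6 were lower and 3 higher on average in KO. Cyp51 was at 79.09, 100.9 and 126.8 CPM in KO and at 88.35, 98.58 and 144.5 in WT, with a log2 fold change of -0.06 ± 0.11 (SE, 95% interval -0.30 to 0.17). The highest Cyp51 value of either genotype was in a WT library, while the KO median was the higher one. Hsd17b7, the 3-ketosteroid reductase of this arm, was at 17.16, 25.41 and 30.55 CPM in KO and at 21.89, 24.69 and 33.41 in WT, with a log2 fold change of -0.10 ± 0.12 (SE, 95% interval -0.35 to 0.14). Sc5d, which introduces the C5 double bond, was at 39.67, 44.97 and 57.04 CPM in KO and at 40.7, 45.5 and 61.64 in WT. Its log2 fold change was -0.09 ± 0.10 (SE, 95% interval -0.29 to 0.12). Ebp was the enzyme with the smallest p, at 27.45, 31.01 and 33.08 CPM in KO and 25.79, 28.09 and 31.12 in WT, and its log2 fold change was 0.09 ± 0.05 (SE, 95% interval -0.02 to 0.20). The KO median of Ebp was the higher one, and the groups overlapped. Msmo1, Nsdhl, a dehydrogenase of the demethylation steps, Tm7sf2 and Lbr, which both encode a C14 sterol reductase, and Dhcr7, a late reductase of this route, had log2 fold changes between -0.04 and 0.02.

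The 5 SREBP regulators had log2 fold changes from 0.01 to 0.03. Srebf2 was at 245.2, 273.1 and 301.1 CPM in KO and at 236.8, 264.0 and 320.1 in WT, with a log2 fold change of 0.03 ± 0.06 (SE, 95% interval -0.10 to 0.16). The WT range enclosed the KO range. Insig1, itself an SREBP target that closes a feedback loop, was at 91.41, 110.0 and 131.5 CPM in KO and at 93.91, 108.0 and 143.9 in WT, with a log2 fold change of 0.01 ± 0.10 (SE, 95% interval -0.20 to 0.21). Insig2, a sister gene with the same role, Srebf1, which drives fatty acid synthesis more than sterol synthesis, and Scap varied little between libraries: the highest value was at most 1.12 times the lowest in KO and 1.17 times in WT. Their confidence intervals lay between -0.06 and 0.08.

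Of the handling genes, Soat1 had a log2 fold change of 0.0036 (95% interval -0.10 to 0.11) and Stard4, a carrier that moves cholesterol between membranes, 0.02 (-0.15 to 0.19). Ch25h, which makes the oxysterol 25-hydroxycholesterol, was the most variable member in WT, at 4.653, 8.134 and 9.741 CPM in KO and 4.006, 6.302 and 11.88 in WT. The highest library exceeded the lowest 2.09-fold in KO and 2.97-fold in WT. The log2 fold change was 0.01 ± 0.24 (SE), and its 95% interval from -0.50 to 0.51 was the widest of all members.

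In the LXR and efflux arm, Abca1 was at 343.0, 438.7 and 481.8 CPM in KO and at 383.5, 422.8 and 485.2 in WT, with a log2 fold change of -0.01 ± 0.08 (SE, 95% interval -0.18 to 0.16). Abcg1, which passes cholesterol to lipoprotein particles, was at 57.93, 86.78 and 124.9 CPM in KO and at 80.25, 89.98 and 127.7 in WT. Its log2 fold change was -0.12 ± 0.14 (SE, 95% interval -0.41 to 0.17). KO 3 stood well below the rest of its genotype, whose next value was 80.16 CPM. KO 5 stood above it (next value 93.8), as did WT 4 in WT (next value 98.11). With a library left out the log2 fold change ranged from -0.23 without KO 5 to -0.04 without WT 4. Nr1h2, which encodes LXR beta, had the smallest p of all members, at 113.6, 115.2 and 124.8 CPM in KO and 109.8, 114.4 and 115.7 in WT. The log2 fold change was 0.05 ± 0.02 (SE, 95% interval -0.0049 to 0.10), and its adjusted p was 0.943. Nr1h3, which encodes LXR alpha, was at 4.196, 6.136 and 6.508 CPM in KO and at 4.341, 6.298 and 8.743 in WT, with a log2 fold change of -0.16 ± 0.16 (SE, 95% interval -0.50 to 0.19). Mylip, an LXR target whose product marks lipoprotein receptors for degradation, had a log2 fold change of -0.0037 (95% interval -0.15 to 0.15).

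Ratios between genes with the same or a sister function were compared per library, as ratios of RPKM, by an exact two-sided permutation test over all 3432 splits, adjusted over the 5 pairs. Lbr exceeded Tm7sf2 by 2.88 ± 0.384 times in KO and 3.02 ± 0.361 in WT (SD, n = 7, exact permutation p = 0.483, adjusted 0.805). Srebf2 exceeded Srebf1 by 2.54 ± 0.146 times in KO and 2.51 ± 0.156 in WT (n = 7, exact permutation p = 0.652, adjusted 0.815). For Insig1 over Insig2 the ratio was 4.41 ± 0.617 in KO and 4.42 ± 0.790 in WT (n = 7, exact permutation p = 0.981, adjusted 0.981). Nr1h3 was a small fraction of Nr1h2, with a ratio of 0.0655 ± 0.0104 in KO and 0.0757 ± 0.0212 in WT (n = 7, exact permutation p = 0.338, adjusted 0.805). Abca1 exceeded Abcg1 by 3.57 ± 0.888 times in KO and 3.22 ± 0.330 in WT (n = 7, exact permutation p = 0.441, adjusted 0.805). The size of these ratios rests on the gene lengths: with the longest transcript, Lbr was at 9.02 and Tm7sf2 at 6.53 RPKM in WT. In 0 of 5 pairs did the ratio differ between genotypes by this test.

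For the enzymes, libraries of a genotype differed from one another by more than the genotype means did. Across the enzymes the highest library exceeded the lowest by 1.20-fold to 1.85-fold in KO and 1.20-fold to 1.80-fold in WT. The library numbered 1 was the highest for 16 of 19 enzymes in KO and 18 of 19 in WT, and for the same 16 enzymes in both. In KO, library 5 was the lowest for 13 of 19. The exceptions at the top were Pmvk, Tm7sf2 and Lbr in KO and Lbr in WT. As log2 CPM minus the genotype mean, the enzymes had a median of 0.30 in KO 1, 0.37 in WT 1 and -0.22 in KO 5, while the other libraries lay between -0.17 and 0.07. The heat map by library shows the raised columns in both genotypes.

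**Figure D3:**
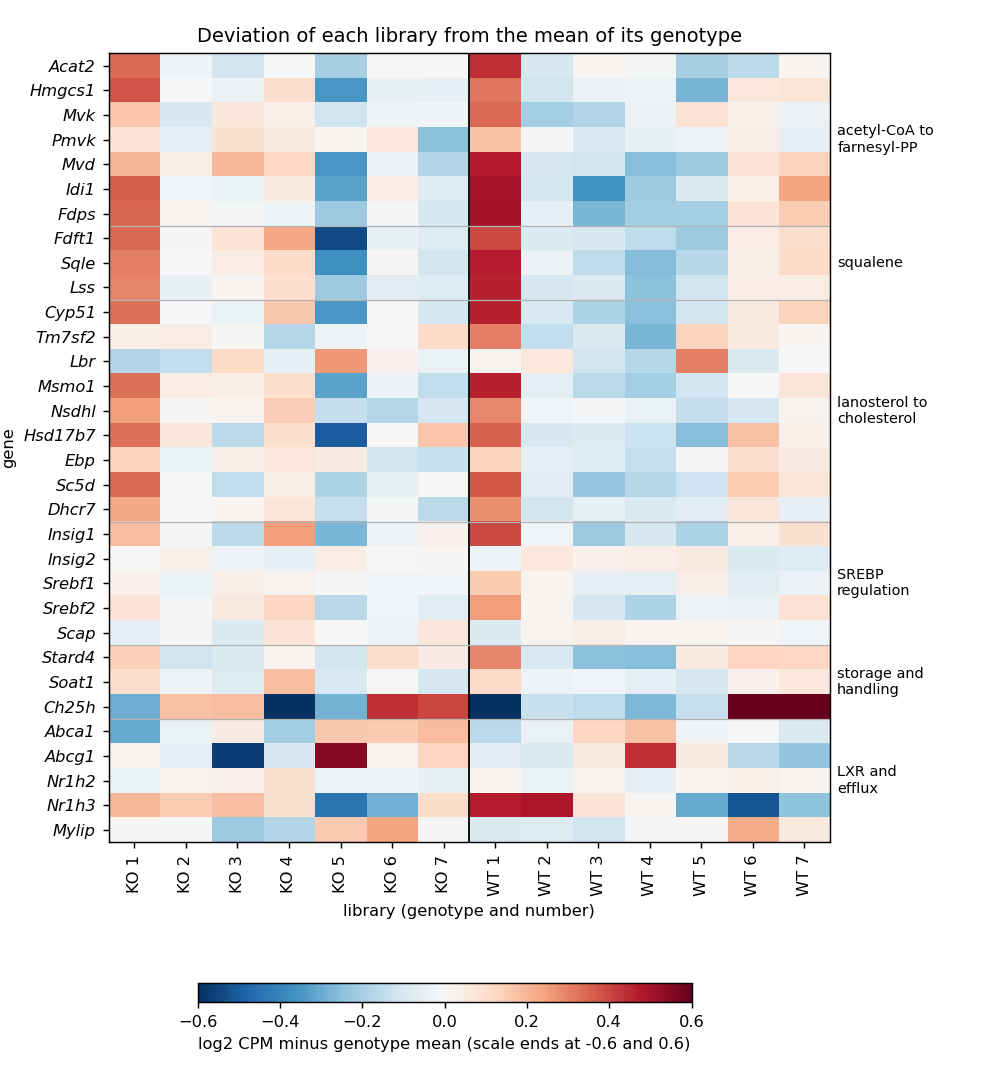
Log2 CPM of each gene minus the mean of its genotype, for 7 KO and 7 WT libraries (red above, blue below, with colours ending at -0.6 and 0.6). Most enzyme rows are red in KO 1 and WT 1 and blue in KO 5, Abca1 is blue in KO 1 and WT 1, and the largest deviations are those of Ch25h, -0.79 in WT 1 and 0.78 in WT 7.

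Other arms moved with these libraries only in part. Insig1 was 0.40 above the genotype mean in WT 1 and 0.18 in KO 1 (log2 CPM), and Srebf2 0.25 and 0.08. Abca1 was at its lowest in the same libraries, -0.30 in KO 1 and -0.16 in WT 1, and Ch25h lay at -0.29 and -0.79, lower still in KO 4 at -0.63. Insig2 and Scap stayed within 0.09 of the genotype mean in every library. KO 1 and WT 1 also had the lowest summed microglial markers of their genotype, 6422 CPM against 6895 to 7780 in the other KO libraries and 6044 against 6784 to 7730 in the other WT libraries. KO 1 was the shallowest KO library (38875344 reads), while WT 1 was among the deeper WT libraries (47292471). Astrocyte markers summed to 110.6 CPM in KO 1 and 53.14 in WT 1, inside the range of the others. Across all tested genes the deviations of KO 1 and WT 1 correlated at r = -0.108, while those of KO 5 and WT 5 correlated at 0.743. The part of markers and depth in the pattern was not tested, the labels name no batch for any library, and whether libraries with the same number share a preparation is not given.

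How the members varied together was measured across the 14 libraries, as log2 CPM minus the genotype mean, against Hmgcs1 for synthesis and Abca1 for efflux, in a family of 61 relations with 100000 permutations within genotype, two-sided and Benjamini-Hochberg adjusted. Of 31 relations to Hmgcs1, 19 passed (adjusted permutation p under 0.05 for Pearson's r), 17 positive and 2 negative, and 18 passed by Spearman's rho as well. Among the 19 that passed by r were 15 of the 18 other enzymes, with Lbr negative and Mvk not past the threshold by rho. Each anchor was set against other members alone, so no share over all tested genes stands beside the counts for Hmgcs1 or Abca1. The closest was Fdft1 (r = 0.94, permutation p = 1e-05, the smallest the permutations can give, adjusted 0.00061, rho = 0.86, permutation p = 0.00017, adjusted 0.00346). Hsd17b7 followed (r = 0.91, permutation p = 0.00011, adjusted 0.00129, rho = 0.78, permutation p = 0.00277, adjusted 0.00976). Cyp51 had r = 0.89 (permutation p = 0.00023, adjusted 0.00129) and rho = 0.83 (permutation p = 0.00058, adjusted 0.00505). Insig1 had r = 0.84 (permutation p = 0.00042, adjusted 0.00135) and rho = 0.81 (permutation p = 0.00161, adjusted 0.00765). For Srebf2 r was 0.70 (permutation p = 0.00748, adjusted 0.0147) and rho 0.61 (permutation p = 0.0256, adjusted 0.046). Lbr, the reductase whose protein also binds the nuclear lamina, went the other way (r = -0.67, permutation p = 0.0146, adjusted 0.027, rho = -0.67, permutation p = 0.0158, adjusted 0.0291). Tm7sf2, with the same enzymatic step, was not related to Hmgcs1 beyond the threshold (r = 0.26, permutation p = 0.373, adjusted 0.407, rho = 0.13, permutation p = 0.672, adjusted 0.683).

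Abca1 was related negatively to the synthesis genes. Of 31 relations 20 passed by Pearson's r, 20 of them negative, and 15 of these were with the 19 enzymes. By Spearman's rho as well, 16 passed. With Cyp51 r was -0.82 (permutation p = 7e-05, adjusted 0.00129) and rho -0.82 (permutation p = 0.00033, adjusted 0.00376). With Msmo1 r was -0.82 (permutation p = 8e-05, adjusted 0.00129) and rho -0.87 (permutation p = 0.00017, adjusted 0.00346). With Srebf2 r was -0.80 (permutation p = 0.00027, adjusted 0.00129) and rho -0.86 (permutation p = 0.0001, adjusted 0.00346). With Hmgcs1 it was weaker, at r = -0.69 (permutation p = 0.00771, adjusted 0.0147) and rho = -0.70 (permutation p = 0.011, adjusted 0.0209). Its sister exporter Abcg1 was not related to it beyond the threshold (r = 0.41, permutation p = 0.213, adjusted 0.265, rho = 0.56, permutation p = 0.052, adjusted 0.0882), nor was Nr1h3 (r = -0.36, permutation p = 0.182, adjusted 0.237, rho = -0.42, permutation p = 0.125, adjusted 0.178). All points share the scaling of their library.

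How many relations passed depended on a pair of libraries, while many coefficients stayed large without them. The 2 libraries farthest from the median of Hmgcs1 were KO 1 and WT 1. Without them 2 of 31 relations passed by r, those with Fdft1 (r = 0.90, permutation p = 0.00024, adjusted 0.0146) and Hsd17b7 (r = 0.86, permutation p = 0.00161, adjusted 0.0327). Of these, Fdft1 passed by rho as well (adjusted permutation p = 0.0218) and Hsd17b7 did not (0.104). Without these libraries r to Hmgcs1 was 0.76 for Cyp51, 0.77 for Insig1 and -0.80 for Lbr. These missed the threshold for r among 12 libraries (adjusted permutation p = 0.0563, 0.0508 and 0.0508). By rho further relations passed, among them Cyp51, Lss and Sqle (rho = 0.78, 0.88 and 0.80, adjusted permutation p = 0.042, 0.0218 and 0.0407). Insig1 and Lbr did not pass by rho (adjusted permutation p = 0.0978 and 0.156). For Mvk r fell from 0.62 to 0.15. To Srebf2 it went from 0.70 to 0.53, and to Abca1 from -0.69 to -0.39. Srebf2 and Abca1 then missed the threshold by r (adjusted permutation p = 0.169 and 0.358) and by rho (adjusted permutation p = 0.149 and 0.159). All 19 relations to Hmgcs1 that had passed kept their sign. For Abca1 the farthest were KO 1 and KO 4, and without them 8 of 31 relations passed, each negative, among them Srebf2 (r = -0.85, permutation p = 0.00159, adjusted 0.0207) and Msmo1 (r = -0.80, permutation p = 0.00271, adjusted 0.0207). With both libraries numbered 1 left out, a choice made after seeing the data, 1 of 31 relations to Abca1 passed, that with Srebf2 (r = -0.85, permutation p = 0.00072, adjusted 0.022). The scatter plots against Hmgcs1 show where these libraries lie.

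**Figure D4:**
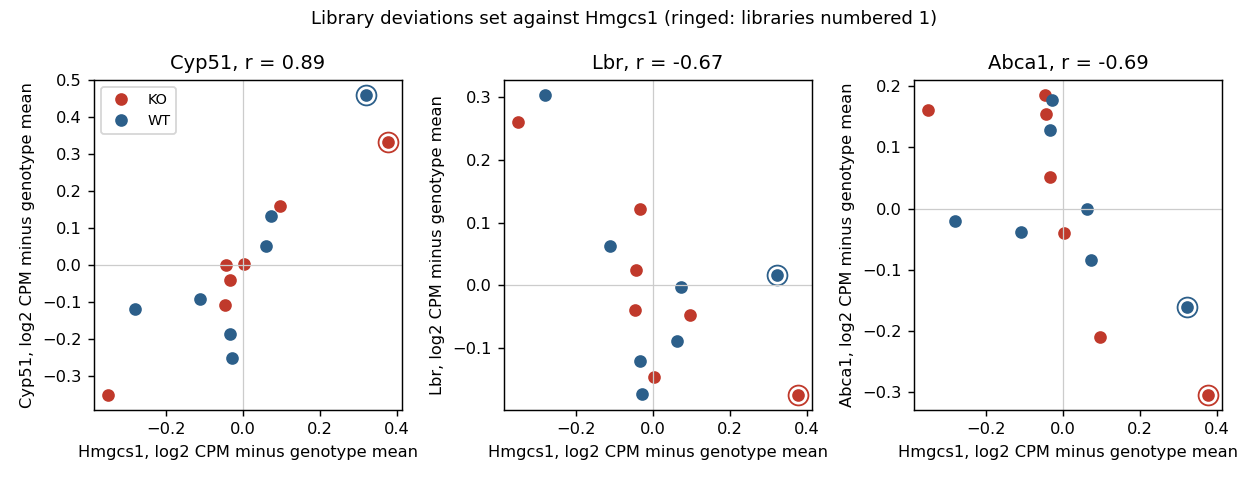
Deviation of Cyp51, Lbr and Abca1 from the genotype mean (log2 CPM, vertical axes) against that of Hmgcs1 (horizontal axes), with 7 KO libraries in red, 7 WT libraries in blue and both libraries numbered 1 ringed. Cyp51 rises with Hmgcs1 (r = 0.89), Lbr and Abca1 decline (r = -0.67 and -0.69), and the ringed libraries lie at the right end. Without the ringed libraries r was 0.76 for Cyp51, -0.80 for Lbr and -0.39 for Abca1.

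Of 40 genes in neighbouring pathways, 0 were called by edgeR (DESeq2 also 0) and 1 was at an unadjusted p under 0.05, beside 3.37% of all tested genes. The exception was Rxra, the partner receptor of LXR, at 281.0 ± 9.71 CPM in KO and 260.9 ± 14.3 in WT (SD, n = 7), with a log2 fold change of 0.11 ± 0.04 (SE, edgeR adjusted p = 0.943). Next in the LXR list was Rxrb, with 0.07 ± 0.04. Of the 10 fatty acid synthesis genes, 9 were on average below WT in KO, the median of their log2 fold changes was -0.13, and 0 of 10 passed at an unadjusted p under 0.05. Their smallest p belonged to Elovl6, an elongase (-0.27 ± 0.14), and Acss2, which makes acetyl-CoA from acetate (-0.12 ± 0.06). In the isoprenoid branch, which uses farnesyl diphosphate for other products, Fntb had -0.11 ± 0.06 and Nus1 -0.04 ± 0.03, and 0 of 7 passed unadjusted. The SREBP-processing list, with the proteases Mbtps1 (0.03 ± 0.02) and Mbtps2 (-0.03 ± 0.03), had 0 of 6, and the sterol transport list 0 of 10, with Stard3 (0.09 ± 0.06) and Gramd1a (0.04 ± 0.03) at the smallest p.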

How the data were processed

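Poly(A) messenger RNA of 14 cultures, 7 KO and 7 WT, was sequenced by the authors as paired-end reads, and the sample labels gave genotype and number. The authors deposited raw read counts for each Ensembl gene without normalization, and the submitters' processing notes name Trimmomatic 0.36, STAR 2.5.2b, Subread 1.5.2 (featureCounts) and GRCm38. The strand setting, the annotation release and the batch of each library are not given in the sources used here, so the batch term of the study's model could not be fitted. Gene names, positions and exon lengths came from the GENCODE M21 annotation of GRCm38, which matched 48970 of 49315 rows, and no count column was left out.

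Low counts were removed with filterByExpr (at least 10 counts in enough libraries, at least 15 in total) and TMM factors were applied. KO was then set over WT in a two-sided quasi-likelihood test (edgeR 4.0.16, run under R 4.3.3), with Benjamini-Hochberg adjustment over 15700 genes. The method was tested on simulated data. Log2 CPM used a prior count of 1. DESeq2 1.42.0, other scaling factors, no filter, a replicate block, an astrocyte marker covariate and leaving out libraries were alternatives. Ratios and relations were tested with numpy 2.4.6 by permutation.

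The members, lists and motifs were chosen with earlier results of these data known. Values per library are given for the 10 members with the smallest unadjusted p and for Hmgcs1, Sqle, Srebf2, Insig1, Abca1, Abcg1 and Ch25h, and of each related list up to 2 genes with the smallest p are named. The promoter table was without Fdps, Fdft1, Sqle, Stard4 and Abcg1. Exons shared with other genes (Fdft1 with Ctsb, Cyp51 with Akap9, Srebf1 with Rai1 and Tm7sf2 with Vps51, among others) make those counts uncertain.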

Additional observations from a re-analysis of the deposited data

Results flagged for a closer look

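Each member's level, as log2 CPM, and each of the 5 ratios, as log2, was examined in the 7 libraries of each genotype, 74 groups in all, for an end library whose gap to its nearest neighbour took a share of the group's range above Dixon's 95% critical value. Chance alone flags about 1 in 20 groups. On this scale there were 7 such cases, each of them the highest of its genotype and numbered 1. In KO 1, Acat2 was at 16.56 CPM against 11.4 to 13.1 in the other KO libraries (gap 0.628 of the log2 range), Fdps at 41.5 against 27.99 to 32.93 (0.587) and Sc5d at 57.04 against 39.67 to 46.38 (0.569). In WT 1, Acat2 was at 18.97 CPM against 12.19 to 14.17 in the other WT libraries (0.660), Lss at 56.57 against 34.68 to 42.41 (0.589), Msmo1 at 122.6 against 77.11 to 93.13 (0.593) and Nsdhl at 25.88 against 19.15 to 21.46 (0.622). These genes vary together, so the 7 are not separate events, and 3 of them lie in KO and 4 in WT. On CPM without the log, a choice made after seeing the data, there were 9, the further ones being Dhcr7 in WT 1 (56.0 CPM, gap 0.569) and Abcg1 in WT 4 (127.7 CPM, 0.623), which is not numbered 1.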

How the results depend on the processing

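The count of members called was 0 under all 22 alternatives, with 0.684 as the smallest adjusted p in any of them, and no log2 fold change of a member moved by more than 0.154. Over all genes the count called was 3, but 15 by DESeq2 and 26 by DESeq2 with the replicate block, and 3 to 4 with a library left out; at an unadjusted p under 0.05 it was 529, but 921 with edgeR's replicate block, 921 with both libraries numbered 1 left out, 1325 of 34582 without the filter and 377 to 999 with a library left out. Members at an unadjusted p under 0.05 numbered 1 with the astrocyte marker level as a covariate (Lbr, edgeR adjusted p = 1.0) and 0 to 2 with a library left out (Ebp and Nr1h2 without KO 7, Ebp without WT 1). Same-numbered libraries deviated together (r over 0.1 across genes) in 3 of 7 pairs, from -0.196 to 0.743, and 3 of 14 libraries correlated best with their own number, so the numbers were not taken as pairs. The replicate block called 0 members, and its smallest member p was 0.0565 (Acat2). Of the 40 genes in neighbouring pathways it had 3 at an unadjusted p under 0.05, beside 921 of 15700 over all genes. They were 1 fatty acid, 1 sterol transport and 1 LXR gene, and 0 of the 40 were called.

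With a library left out, the log2 ratio of Insig1 to Insig2 (KO minus WT) ranged from -0.0474 to 0.0733, the median log2 fold change of the members from -0.0415 to 0.0258, of the enzymes from -0.0887 (without KO 1) to 0.0372 (without WT 1) and of the LXR and efflux genes from -0.0471 to 0.0224. With both libraries numbered 1 left out, chosen after seeing the data, the enzymes' median was -0.01. Of 330 values for 15 named members, 29 changed sign. The members with such changes are given by their range with a library left out, and each range held both signs. Insig1 ranged from -0.0349 to 0.0868 and was at -0.00283 with upper-quartile factors. Ch25h ranged from -0.0972 to 0.161, and was at -0.0054 with upper-quartile factors and -0.0525 with both libraries numbered 1 left out. Abca1 ranged from -0.0413 to 0.0325, and was at 0.00908 with the astrocyte covariate and 0.00713 with both libraries numbered 1 left out. Sqle ranged from -0.0849 to 0.0662 and was at 0.00782 with both left out. The range was -0.00386 to 0.0756 for Srebf2, -0.144 to 0.0245 for Fdps and -0.128 to 0.0262 for Cyp51. By Pearson's r, relations past the threshold numbered 19 for Hmgcs1 and 20 for Abca1. Without the 2 libraries farthest from each one's median they numbered 2 and 8, and with both libraries numbered 1 left out 2 and 1. Fewer libraries enter these tests. The level in RPKM moved beyond 1 SD with the transcript length for 20 of 32 members.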
